A study of Mus musculus with 18 samples.

Results

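Nicotinamide adenine dinucleotide (NAD) is used up and rebuilt by a small set of enzymes, and 9 genes of this set were followed here in mouse bone marrow-derived macrophages (BMDMs). They are Cd38, Bst1 and Sarm1, which break NAD down, Nampt, Naprt, Nmnat1 and Nmnat3, which salvage it, Nadk, which phosphorylates it, and Nnt. The genes were chosen by name around Cd38, which was selected on its response to LPS in these libraries, one of the largest of all genes. For that reason the LPS response of Cd38 is described below with no test. Of the 21734 genes in the table, 8 are members of this set. Nnt was not analysed here, and Sarm1 had too few counts to enter a test, which left 7 genes tested among 11357.

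Groups of 3 libraries came from BMDMs of 3 genotypes of mice of mixed 129/B6 background, aged 6 to 7 months by the culture methods. By the study's methods, founders of the KO and 3'F lines were backcrossed 3 times to C57BL6/J. The lines were kept as separate colonies, and WT mice were taken from both. Allele and line therefore cannot be told apart between KO and 3'F. The study gives a younger age for mice of its mass spectrometry, although it describes both measurements on fractions of the same replicates. The genotypes were wild-type (WT), miR-146a knock-out (KO) and 3'F, in which the seed is kept and positions 13 to 20 are swapped. MiR-146b, whose gene the study left intact in KO, has the same seed as miR-146a. In the study's small RNA data from BMDMs, mature miR-146b appeared higher in KO and not in 3'F. Marrow was cultured for 8 to 9 days with 10 ng/ml M-CSF, and the medium was then changed to fresh medium without LPS (resting) or with LPS at 1 ng/ml, and cells were harvested 16 h later. Both altered alleles are carried in the germline, so that they were present in marrow precursors as well as in the macrophages. Each genotype had 3 mice, and the labels do not state whether a replicate number marks the same mouse in the resting and LPS groups. The p-values therefore measure the spread between these cultures.

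Enzymes that hydrolyse NAD at the cell surface release nicotinamide and ADP-ribose, and Cd38 can in addition form cyclic ADP-ribose, a calcium-releasing messenger. The nicotinamide so released is returned to NAD by Nampt, the rate-limiting enzyme of salvage, and then by an Nmnat adenylyltransferase. In macrophages Cd38 is well known as a gene induced by inflammatory stimuli, and Nampt as one that such stimuli raise as well.

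MiR-146a is a microRNA that acts through its seed, nucleotides 2 to 8, and is known as a brake on Toll-like receptor signaling. Its mature sequence is shown because the genotypes differ in it, with the seed in capitals. The first line is the mature form in RefSeq (GRCm38.p6, chr11:43374435-43374456, minus strand), and the others are the synthetic forms that the study designed after the WT and the 3'F allele, whose letters differ at 8 positions between positions 13 and 20, counted from the 5′ end.
miR-146a-5p: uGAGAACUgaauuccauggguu
WT mimic: uGAGAACUgaauuccauggg
3'F mimic: uGAGAACUgaauaagugucc

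The longest annotated 3′ UTR of each of the 8 genes was searched for the complement of nucleotides 2 to 8, or of nucleotides 2 to 7 followed by an A. Bst1 and Sarm1 held 1 such word each, and Cd38, Nampt, Naprt, Nmnat1, Nmnat3 and Nadk held none. Over 21557 genes with a 3′ UTR, 17.5% held at least 1. The word in Bst1 is shown, in capitals within its 3′ UTR, because Bst1 was the one gene among those tested that had it. A word of this kind is a description of the letters and not a site shown to be used.
Bst1 3′ UTR: ccccaaggagagtgcAGTTCTCtct

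Bst1 (ENSMUSG00000029082, chr5:43818885-43843986, plus strand) and Cd38 (ENSMUSG00000029084, chr5:43868553-43912375, plus strand) lie side by side on GRCm38 (GENCODE M21), with 24566 bases and no other protein-coding gene between them. The start of Bst1 overlaps the start of Fbxl5 on the opposite strand, and the counts were made by strand. Nampt (ENSMUSG00000020572) lies at chr12:32819545-32853349, Nadk (ENSMUSG00000029063) at chr4:155562378-155591001, Naprt (ENSMUSG00000022574) at chr15:75890956-75894481, Nmnat1 (ENSMUSG00000028992) at chr4:149467572-149485202, Nmnat3 (ENSMUSG00000032456) at chr9:98287435-98420438 and Sarm1 (ENSMUSG00000050132) at chr11:78472330-78497754.

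The promoters of Cd38 and Nampt are shown because these genes had the largest LPS response of the set and the highest level with LPS. Each runs from 250 bases before to 50 bases after the start in RefSeq (GRCm38.p6), on the plus strand at chr5:43868559-43868858 for Cd38 and chr12:32820085-32820384 for Nampt. Both windows lie inside the GENCODE M21 spans of these genes, which start at 43868553 and 32819545. Bases before those GENCODE starts are in neither window and were not searched. The window of Cd38 held 1 CpG and was 51.7% G or C, and that of Nampt held 36 CpG and was 76.3% G or C, while the median over 32851 windows was 7 CpG and 52.7%.
Cd38: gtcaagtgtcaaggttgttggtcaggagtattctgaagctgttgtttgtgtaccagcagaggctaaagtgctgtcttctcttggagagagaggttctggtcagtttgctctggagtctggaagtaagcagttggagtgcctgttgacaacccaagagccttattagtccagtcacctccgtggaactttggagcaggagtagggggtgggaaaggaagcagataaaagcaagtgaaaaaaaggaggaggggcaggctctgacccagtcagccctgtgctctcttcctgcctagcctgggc
Nampt: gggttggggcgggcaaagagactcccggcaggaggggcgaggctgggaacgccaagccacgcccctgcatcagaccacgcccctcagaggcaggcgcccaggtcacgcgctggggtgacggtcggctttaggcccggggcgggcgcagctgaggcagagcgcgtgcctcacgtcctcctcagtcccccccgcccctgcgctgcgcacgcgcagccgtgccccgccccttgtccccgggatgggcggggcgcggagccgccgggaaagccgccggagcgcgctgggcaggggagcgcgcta

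Windows were found for 6 of the 9 genes and were searched on both strands for 3 words: GGANTTTCC, the word of NF-κB, GAAANNGAA, that of interferon regulatory factors, and TTCNNNGAA, that of STAT factors. Neither of the windows shown held any of them, and none was found for Nmnat1, Nmnat3 or Nadk. Sarm1 held GAAANNGAA once, 199 bases before its start. Over all windows the words were present in 1.25%, 8.56% and 8.3%, so that their absence from single windows is usual.

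Total counts ran from 4071084 to 19818043 per library. Levels are given as CPM, counts per 1000000 of library size after TMM scaling, with the SD over 3 libraries. On the first principal component, which held 61.8% of the variance, replicate 3 of resting KO lay at 19.7, beside WT replicate 2 with LPS at 17.4, while the other 2 resting KO libraries lay at −28.2 and −31.5. Replicate 3 of the resting 3'F group was the shallowest library and stood apart on the second component, at 50.3. B cell markers summed to at most 1.17 CPM. Macrophage markers summed to 31800 to 47800 CPM in WT, 60500 to 62400 in KO and 42700 to 62300 in 3'F at rest, and to 45500 to 59900 CPM in WT, 71200 to 87900 in KO and 50500 to 60400 in 3'F with LPS. By this sum, which was mostly Lyz2, the KO libraries were above the WT ones in both states. Single markers differed in direction. Csf1r averaged 3048 CPM in KO and 1744 in WT at rest, and 3552 and 2698 with LPS. Itgam averaged 150 CPM in KO and 245 in WT at rest, and 219 and 330 with LPS. Of 8 markers of neutrophils and their precursors, the sum ran from 14.9 to 23.4 CPM in WT, 15.7 to 53.3 in KO and 13.7 to 66.5 in 3'F at rest, and from 33.0 to 40.8 CPM in WT, 38.7 to 67.0 in KO and 28.4 to 33.5 in 3'F with LPS, mostly from S100a8, with Ly6g at no more than 2 counts. With LPS the KO libraries did not overlap the others for S100a8 (37.8 CPM on average, beside 23.2 in WT and 22.4 in 3'F) or Camp (4.95 beside 2.13 and 1.76). The remaining markers of this list overlapped between KO and WT with LPS. Among them S100a9 and Ltf were higher on average in KO (9.90 and 2.08 CPM beside 6.90 and 0.821 in WT). Ngp, Mpo and Elane were lower in KO (1.45, 0.190 and 0.0459 CPM beside 1.97, 0.527 and 0.0932 in WT). The part of both lists in the KO and LPS results below was not tested. In bulk RNA, fewer cells of a type and less RNA per cell cannot be told apart. Because the table lists protein-coding genes, miR-146a itself was not analysed here, and the genotype labels could not be checked against it.

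Cd38 went from near absence to a moderate level with LPS in every genotype. Resting WT libraries held 7, 0 and 0 counts of Cd38, resting KO libraries 1, 4 and 7, and resting 3'F libraries 1, 3 and 0. With LPS the WT libraries reached 43.5, 21.7 and 72.6 CPM, from 624, 318 and 991 counts. KO libraries with LPS reached 108, 131 and 123 CPM, and 3'F libraries 55.5, 55.9 and 45.0 CPM. No resting library overlapped any LPS library, and the lowest KO library with LPS was above the highest library of the other LPS groups. Scaled by library size, the summed counts with LPS were 252 times those of resting WT, with a 95% exact interval of 122 to 627 that covers counting error only. In KO the ratio was 382 (218 to 740), and in 3'F it was 526 (205 to 1930). The resting sums behind these ratios are 7, 12 and 4 counts, and the spread between cultures is not in the intervals. By fitted log2 fold change Cd38 had rank 3 of 11357 genes in WT, behind the cytokine genes Il12b and Cxcl11 and just before Ccl5. Its rank was 3 in KO and 2 in 3'F. In WT its fitted log2 fold change of 7.93 ran from 7.36 to 12.3 with single libraries left out. Ccl5 stood at 7.91 and Cxcl11 at 8.68 in the main fit, so that the exact rank is not firm.

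Bst1 (CD157), the paralog of Cd38 that is anchored to the membrane by a lipid, was already present at rest and rose with LPS. Resting WT libraries held 17.7, 15.6 and 23.3 CPM, and WT libraries with LPS 109, 103 and 164 CPM. Resting KO libraries held 24.1, 24.6 and 83.2 CPM, and KO libraries with LPS 196, 236 and 233 CPM. In 3'F, resting libraries held 25.5, 20.5 and 16.6 CPM and LPS libraries 128, 133 and 119 CPM. All LPS libraries were above all resting libraries, and replicate 3 of resting KO stood between them. The log2 fold change with LPS was 2.73 ± 0.38 (SE) in WT, 2.35 ± 0.37 in KO and 2.58 ± 0.38 in 3'F, with adjusted p of 6.84e-05, 0.000182 and 0.000102 by edgeR's quasi-likelihood test with Benjamini-Hochberg adjustment.

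Sarm1, an intracellular NAD hydrolase best known from axon degeneration, was close to the limit of detection. Its counts ran from 2 to 14 per library, and its group means from 0.281 CPM in KO with LPS to 0.462 CPM in resting KO. The libraries of neighboring groups overlapped throughout this order, and no difference was detectable at this depth.

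Levels of the NAD-degrading genes were set beside each other per kb of exon. In resting WT, Bst1 had 6.61 ± 1.39 CPM per kb, Sarm1 0.0561 ± 0.0397 and Cd38 0.0469 ± 0.0812. With LPS, Bst1 had 43.8 ± 11.7 CPM per kb in WT and Cd38 14.1 ± 7.82. In KO with LPS the values were 77.6 ± 7.73 for Bst1 and 36.8 ± 3.58 for Cd38, and in 3'F with LPS 44.4 ± 2.39 and 16.0 ± 1.89. Bst1 transcripts thus exceeded those of Cd38 per length in all 6 groups, although Cd38 had the larger response.

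**Figure D1:**
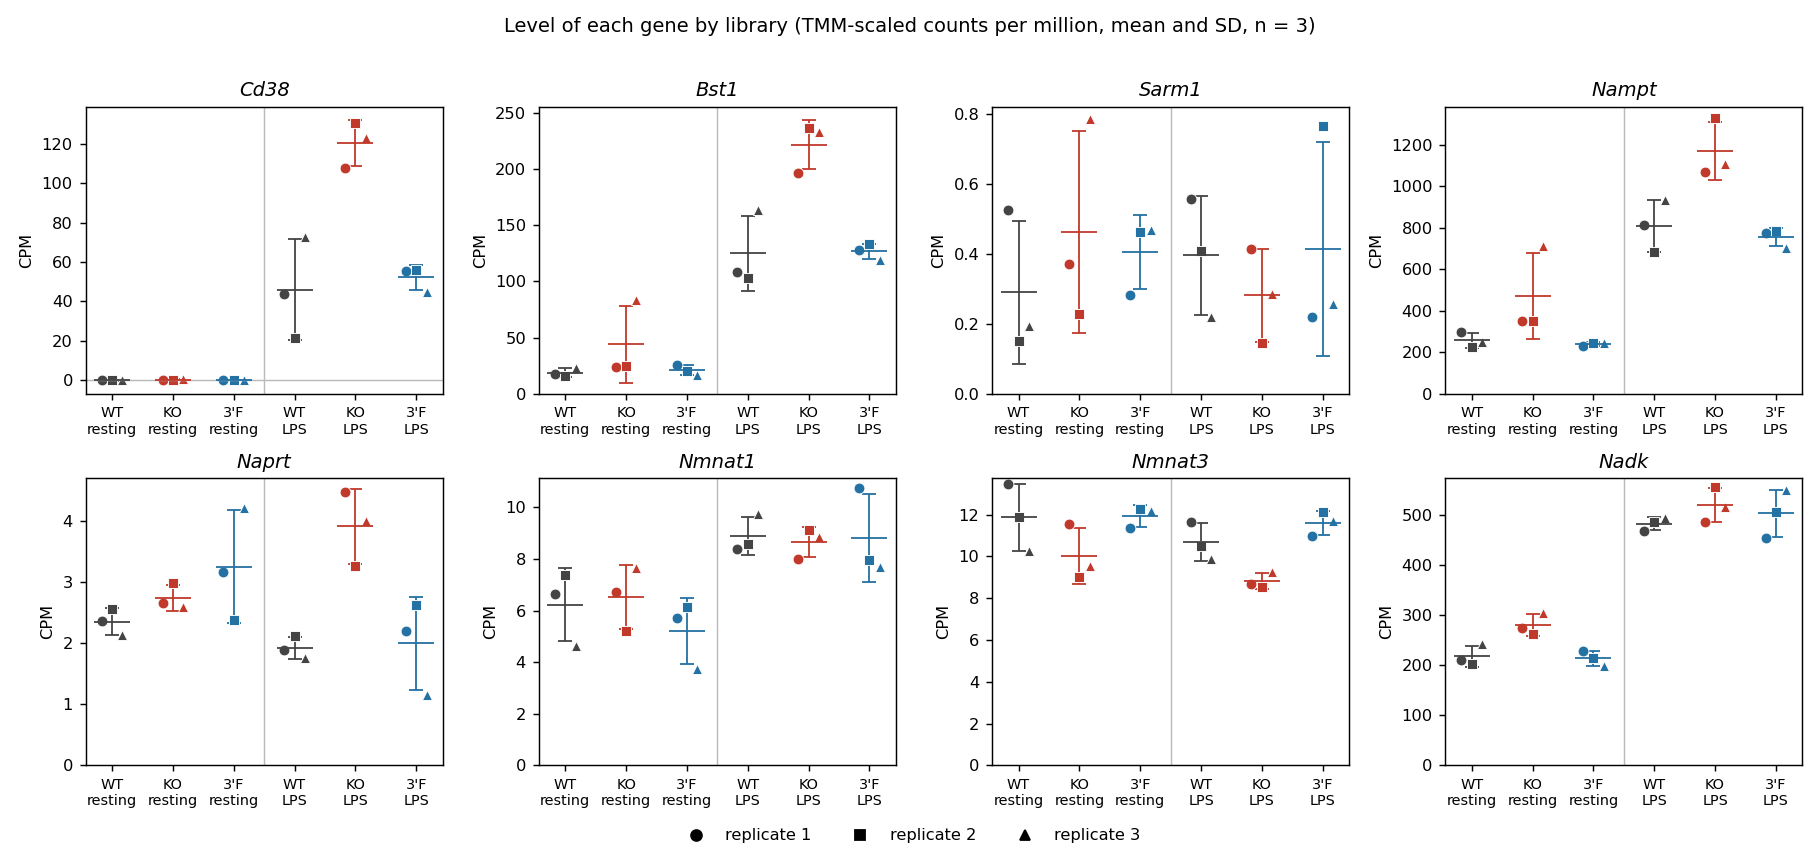
Level of 8 genes in 18 libraries, in CPM (y axes, each gene on its own scale) by group (x axis), with marker shapes for the replicates and a bar for the mean ± SD over 3 libraries. Cd38 is near 0 at rest and highest in KO with LPS, where its libraries hold 108 to 131 CPM, and replicate 3 of resting KO stands above the other 2 for Bst1 and Nampt.

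Among the salvage genes, Nampt rose with LPS in all genotypes, while Nmnat3 did not pass the test in any. Nampt held 298, 227 and 250 CPM in resting WT and 811, 683 and 933 CPM in WT with LPS. In KO it held 352, 350 and 710 CPM at rest and 1069, 1328 and 1107 CPM with LPS. In 3'F it held 230, 245 and 244 CPM at rest and 773, 784 and 704 CPM with LPS. Within each genotype the resting and LPS libraries did not overlap, but replicate 3 of resting KO exceeded a WT and a 3'F library with LPS. The log2 fold change with LPS was 1.65 ± 0.22 in WT (adjusted p = 5.35e-05, edgeR), 1.31 ± 0.22 in KO (adjusted p = 0.000334, edgeR) and 1.65 ± 0.22 in 3'F (adjusted p = 4.68e-05, edgeR). Per kb of exon Nampt had 57.1 ± 8.03 CPM in resting WT, next to Nadk at 59.9 ± 5.86, and was first of the set in all LPS groups.

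Nmnat1, the nuclear enzyme that makes NAD from nicotinamide mononucleotide, held 6.22 ± 1.42 CPM in resting WT and 8.91 ± 0.738 with LPS. Its LPS libraries lay above the resting ones in each genotype. The log2 fold change was 0.51 ± 0.20 in WT (adjusted p = 0.0743, edgeR), 0.41 ± 0.20 in KO (adjusted p = 0.150, edgeR) and 0.70 ± 0.21 in 3'F (adjusted p = 0.0184, edgeR). Only the last passed the test, and it was lost without replicate 3 of resting 3'F (adjusted p = 0.0600) or replicate 1 of 3'F with LPS (adjusted p = 0.0987), with no scaling factor (adjusted p = 0.0744) and with only the groups compared (adjusted p = 0.0789). The interaction of 3'F and LPS for Nmnat1 was 0.20 ± 0.29, so that its response was not shown to differ between 3'F and WT. Nmnat3, its mitochondrial counterpart, held between 8.54 and 13.5 CPM in all 18 libraries, and its log2 fold changes with LPS were −0.16 ± 0.13 in WT, −0.19 ± 0.13 in KO and −0.04 ± 0.13 in 3'F.

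Naprt, which starts salvage from nicotinic acid instead of nicotinamide, was low, with 9 to 65 counts per library. WT libraries held 2.36, 2.56 and 2.13 CPM at rest and 1.88, 2.12 and 1.76 CPM with LPS. KO libraries held 2.66, 2.98 and 2.58 CPM at rest and 4.48, 3.26 and 3.99 CPM with LPS. In 3'F they held 3.16, 2.38 and 4.21 CPM at rest and 2.20, 2.63 and 1.15 CPM with LPS. WT libraries were thus lower and KO libraries higher with LPS than at rest, without overlap, but neither change passed the test, at −0.29 ± 0.27 and 0.51 ± 0.26 on the log2 scale.

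Nadk, the cytosolic kinase that turns NAD into NADP, rose with LPS with the smallest standard errors of the set. Resting WT libraries held 210, 202 and 242 CPM and WT libraries with LPS 469, 486 and 495 CPM. KO libraries held 274, 262 and 305 CPM at rest and 487, 556 and 517 CPM with LPS, and 3'F libraries 229, 215 and 199 CPM and then 455, 507 and 550 CPM. All LPS libraries were above all resting ones. The log2 fold change was 1.15 ± 0.11 in WT, 0.89 ± 0.11 in KO and 1.23 ± 0.11 in 3'F, with adjusted p of 1.40e-06, 1.45e-05 and 6.43e-07 by edgeR.

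Set against all genes, the LPS response called 3 of the 6 members tested in WT, where 28.5% of 11357 genes were called in either direction and 16.3% were called higher. In KO 3 of 6 were called beside 26.9% of all genes (14.3% higher), and in 3'F 4 of 6 beside 31.2% (17.2% higher). Every member called was higher with LPS. The median log2 fold change of the 6 was 0.83 in WT, 0.70 in KO and 0.97 in 3'F, and that of all genes tested was 0.02, 0.02 and −0.01. Bst1, Nampt and Nadk were the genes called in all 3 genotypes, and they kept their calls when any single library was left out.

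Interaction terms compared the size of the LPS response in KO, or in 3'F, with its size in WT. By edgeR no member was called in either, with 1 of 6 at an unadjusted p under 0.05 for KO and 0 of 6 for 3'F, and by DESeq2 and limma-voom none was called either. Over all genes 0.00881% were called for KO, beside 560 at an unadjusted p under 0.05, and for 3'F 0% were called by edgeR, 0 by DESeq2 and 0 by limma-voom, beside 203 at an unadjusted p under 0.05. For Bst1 the KO interaction was −0.38 with a 95% interval of −1.45 to 0.68, for Nampt −0.34 (−0.98 to 0.31) and for Nadk −0.26 (−0.58 to 0.06). Without replicate 3 of resting KO those of Bst1 and Nampt were 0.45 and 0.08. The 3'F interactions were −0.15 for Bst1 (−1.23 to 0.92), 0.01 for Nampt (−0.64 to 0.66) and 0.09 for Nadk (−0.23 to 0.40).

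**Figure D2:**
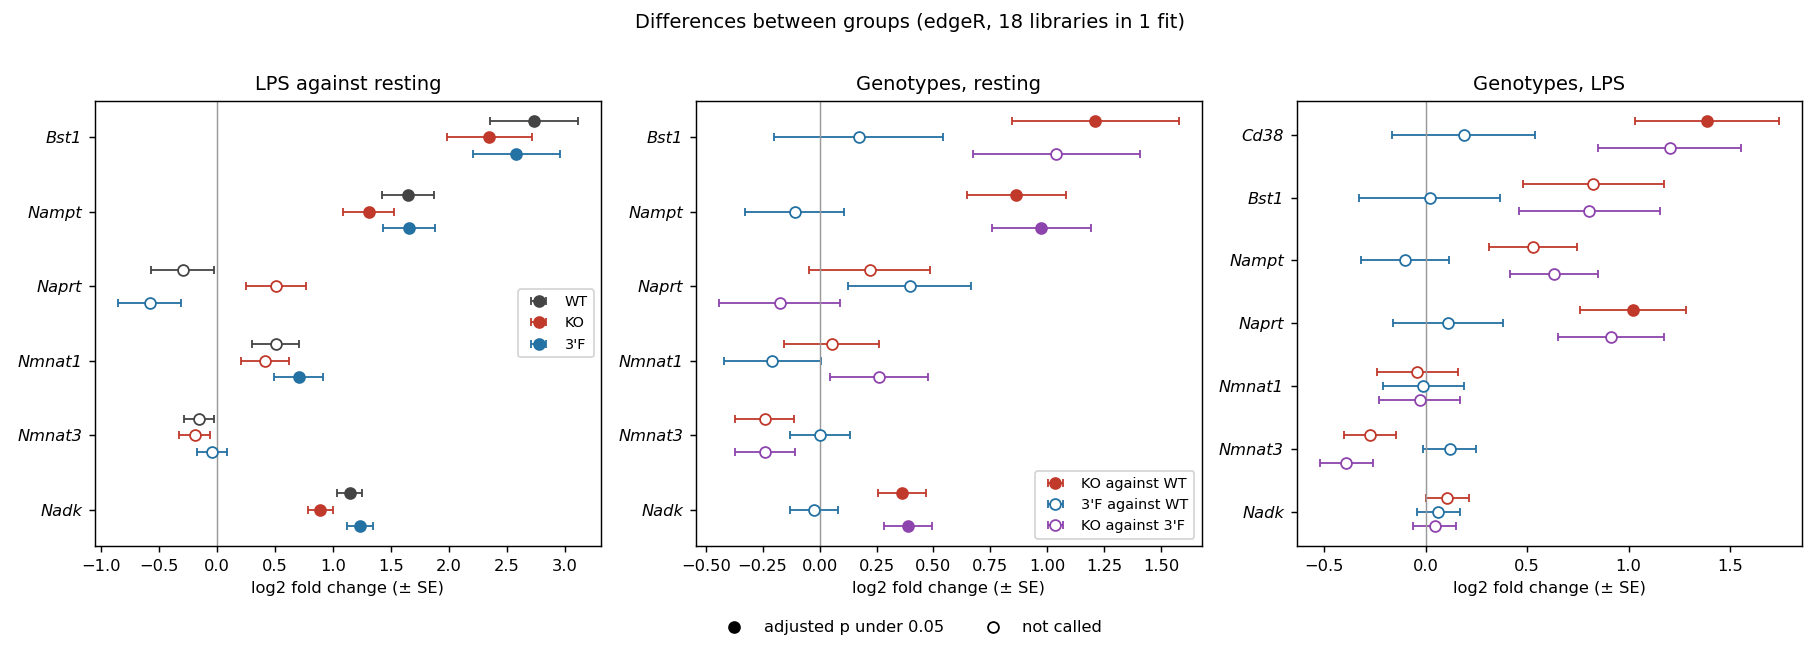
Log2 fold changes ± SE (x axes) of the genes tested (y axes), for LPS against resting in each genotype and for the genotype comparisons at rest and with LPS, with filled points for adjusted p under 0.05 by edgeR. Cd38 is drawn with LPS in the genotype panel alone, and the 3'F to WT points lie between −0.21 (Nmnat1 at rest) and 0.39 (Naprt at rest), beside KO to WT values of up to 1.39.

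Genotypes were compared first at rest. In KO, Bst1, Nampt and Nadk were higher than in WT, which is 3 of 7 members tested, where 9.4% of all genes were called and 5.12% were called higher. The log2 fold change was 1.21 ± 0.37 for Bst1 (adjusted p = 0.0484, edgeR), 0.86 ± 0.22 for Nampt (adjusted p = 0.0204, edgeR) and 0.36 ± 0.11 for Nadk (adjusted p = 0.0426, edgeR), and all 3 KO libraries were above the WT ones. Replicate 3 of resting KO carried much of this. Without it the log2 fold changes were 0.37 (adjusted p = 0.332), 0.44 (adjusted p = 0.0700) and 0.30 (adjusted p = 0.120), and no member was called. The count also fell to 0 without replicate 2 of resting WT and to 1 without replicate 1 or replicate 3 of that group. Over 7 alternative settings with all libraries kept, Bst1 and Nadk each lost the call in 4 and Nampt in 1.

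Replicate 3 of resting KO held Bst1 at 83.2 CPM and Nampt at 710 CPM, the latter within the range of WT with LPS, and Cd38 at 7 counts, or 0.786 CPM, beside at least 21.7 CPM in each LPS library. The plot of Cd38 against Nampt shows this library far below the LPS libraries with the same level of Nampt. Cd38 did not differ detectably between resting genotypes at these counts, and no fold is given.

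**Figure D3:**
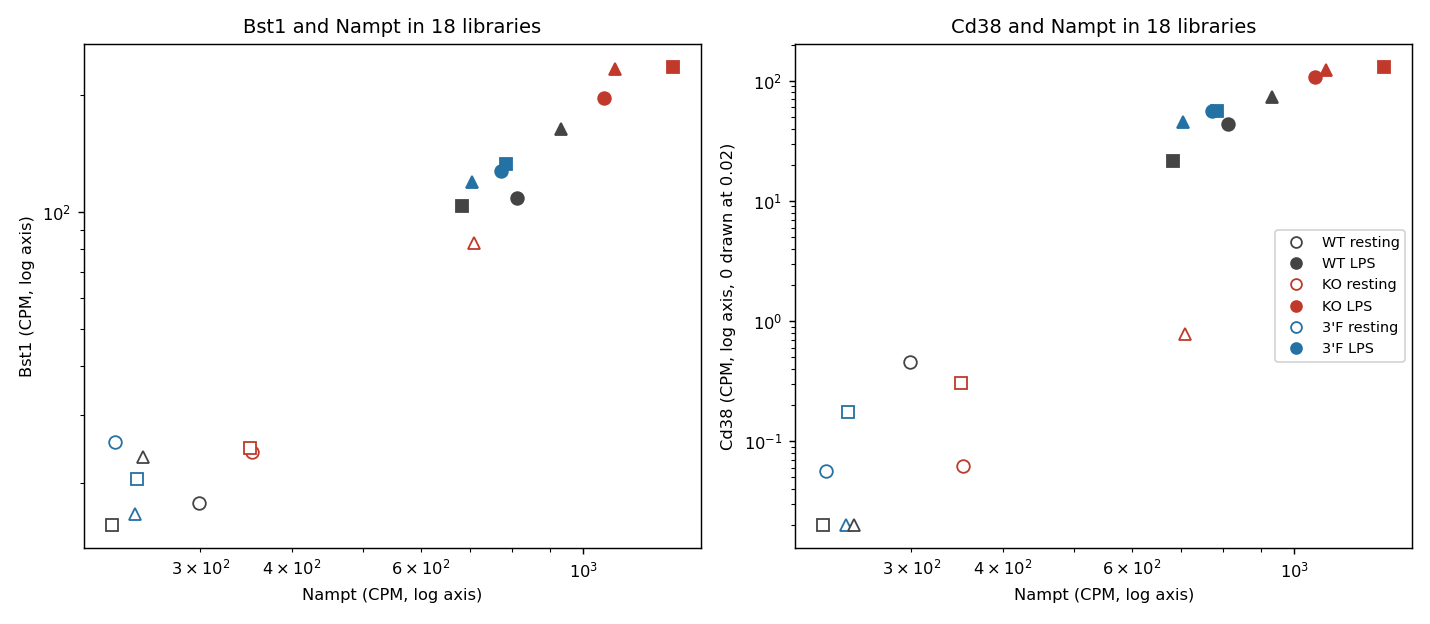
Bst1 (left) and Cd38 (right) against Nampt in 18 libraries, in CPM on log axes, with colors for genotype, open markers for resting and filled ones for LPS, and marker shapes for replicates as in the plot of levels. The open red triangle is replicate 3 of resting KO, at 710 CPM of Nampt, 83.2 CPM of Bst1 and 0.786 CPM of Cd38.

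With LPS, Cd38 and Naprt were higher in KO than in WT, 2 of 7 members tested beside 4.79% of all genes called and 1.89% called higher. Cd38 was selected on its response in these same LPS libraries. With 0 to 7 counts in resting libraries, it passed the count filter through the LPS libraries alone. Its call is thus not independent of that choice, and Naprt was the only other member called. Cd38 held 120 ± 11.7 CPM in KO and 46.0 ± 25.6 in WT, a log2 fold change of 1.39 ± 0.36 (adjusted p = 0.0349, edgeR), with 3 of 3 KO libraries above the WT ones. Naprt held 3.91 ± 0.613 CPM in KO and 1.92 ± 0.181 in WT, a log2 fold change of 1.02 ± 0.26 (adjusted p = 0.0345, edgeR), again in 3 of 3 libraries. Both calls were near the threshold. That of Cd38 was lost without any one of the 6 libraries except replicate 3 of WT with LPS (log2 fold change 1.05 to 1.88, adjusted p up to 0.144), and that of Naprt without any one (0.91 to 1.13, adjusted p up to 0.128). DESeq2 gave an adjusted p of 0.161 for Cd38. Bst1 and Nampt had log2 fold changes of 0.83 ± 0.35 (adjusted p = 0.215, edgeR) and 0.53 ± 0.22 (adjusted p = 0.196, edgeR), which did not pass, although the KO libraries lay above the WT libraries for both. Nadk differed by 0.11 ± 0.11, Nmnat1 by −0.04 ± 0.20 and Nmnat3 by −0.28 ± 0.13, none of them called.

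The 3'F allele was compared with both other genotypes. Against WT, 0 of 7 members were called at rest and 0 of 7 with LPS by edgeR, DESeq2 or limma-voom, and 0 of 7 had an unadjusted p under 0.05 in either state. Over all genes 0% were called at rest by edgeR (557 at an unadjusted p under 0.05, 2 by DESeq2 and 2 by limma-voom) and 0.00881% with LPS. With LPS the log2 fold change of 3'F over WT was 0.19 for Cd38 (95% interval −0.56 to 0.93), 0.02 for Bst1 (−0.72 to 0.75), −0.10 for Nampt (−0.56 to 0.36) and 0.06 for Nadk (−0.16 to 0.29). At rest it was 0.17 for Bst1 (−0.61 to 0.95), −0.11 for Nampt (−0.57 to 0.35) and −0.03 for Nadk (−0.25 to 0.20). A difference within these bounds was not detectable with 3 libraries a group, and the absence of a call does not show that 3'F and WT are alike.

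Resting KO exceeded resting 3'F in Nampt, by 0.97 ± 0.22 (adjusted p = 0.0112, edgeR), and in Nadk, by 0.39 ± 0.11 (adjusted p = 0.0270, edgeR). That is 2 of 7 members beside 12.9% of all genes called and 6.79% called higher. Without replicate 3 of resting KO, Nampt kept its call at 0.55 (adjusted p = 0.0284), and Nadk did not at 0.33 (adjusted p = 0.0743). The count also fell to 1 without replicate 2 or replicate 3 of resting 3'F. With LPS 0 of 7 members were called by edgeR between KO and 3'F, beside 3.88% of all genes. By the same test 5 of 7 members and 1921 genes had an unadjusted p under 0.05. DESeq2 called 1 member beside 801 genes in all, and limma-voom 5 members beside 1842 genes. Cd38 is among the 5 with an unadjusted p under 0.05. It was selected on its response in these same LPS libraries, so that its p is not independent of that choice. Cd38 was 1.20 ± 0.35 higher in KO on the log2 scale (adjusted p = 0.0712, edgeR), with 3 of 3 libraries above those of 3'F, and Naprt was 0.91 ± 0.26 higher (adjusted p = 0.0634, edgeR). The KO to WT and KO to 3'F comparisons share the KO libraries.

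Genes with the most similar pattern to Cd38 were ranked by Pearson's r of log2 CPM over the 18 libraries, among 10260 genes. They were Mtm1, Plek, Slc31a2, Ptges and Acsl1, with r between 0.987 and 0.989. Once group means were removed, r was 0.343 for Acsl1 and 0.766 for Slc31a2. For Bst1 they were Ptprc, Ms4a6d, Snx10, Cfb and Dpysl2, and for Nampt they were Snx10, Ccdc88b, Ly6i, Ms4a6d and Parp9, a list that shares Snx10 and Ms4a6d with that of Bst1. Between members, r was 0.961 for Cd38 and Bst1, 0.946 for Cd38 and Nampt and 0.980 for Bst1 and Nampt, and with group means removed 0.559, 0.755 and 0.853. The points share their libraries, their depth and the split between resting and LPS groups. Values with group means removed include replicate 3 of resting KO, which stood far above its group for Bst1 and Nampt. Those of Cd38 also include resting libraries with 0 to 7 counts. The part of these libraries in the values was not tested.

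The wider pathway was taken from a list of 62 other genes of NAD metabolism, of which 61 were in the table and 45 were tested. With LPS in WT, 9 were called higher and 4 lower, which is 28.9% of the 45 beside 28.5% of all genes. In KO the numbers were 6 and 5, or 24.4% beside 26.9%, and in 3'F 8 and 6, or 31.1% beside 31.2%. The list as a whole was thus called about as often as all genes, and the median of the 45 was within 0.04 of 0 on the log2 scale in each genotype. The genes that rose were mostly ADP-ribose transferases, which spend NAD to modify proteins or nucleic acids, with 8 of 16 tested called higher in WT, 6 in KO and 7 in 3'F, and none lower, where 16.3%, 14.3% and 17.2% of all genes were called higher. Parp14 rose the most in WT, from 122 ± 32.0 to 1179 ± 399 CPM (log2 fold change 3.27 ± 0.41), followed by Parp12 (2.86 ± 0.55), Parp9 (2.65 ± 0.44) and Parp10 (2.47 ± 0.50). All 4 are known as interferon-stimulated genes. Parp12 and Parp10 were not called in KO, where they were called once replicate 3 of resting KO was left out (2.68 and 2.38).

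The genes that fell in WT were of other kinds. Nt5e (CD73), which makes adenosine from AMP outside the cell, fell by 1.92 on the log2 scale (SE 0.53), from 4.23 ± 2.21 to 1.09 ± 0.645 CPM. Enpp1, a surface pyrophosphatase that can cleave NAD, fell by 1.14 (SE 0.22), from 31.4 ± 4.31 to 14.2 ± 1.68 CPM. Both were called lower in KO (−2.70 and −1.26) and in 3'F (−2.16 and −1.18) as well. Sirt3, the main mitochondrial sirtuin, fell by 1.16 (SE 0.31) in WT and was the one called there of the 7 sirtuins tested. In KO 0 of the 7 were called. Nadk2, the mitochondrial NAD kinase, fell by 0.43 (SE 0.14) in WT, where Nadk rose, and was called in neither KO nor 3'F. In KO it averaged 20.6 CPM at rest and 17.6 CPM with LPS. Genes of the route from tryptophan were scarce, with 2 of 9 tested, and Ido1, its inducible first enzyme, had at most 1 count in any library. Nmnat2, the third adenylyltransferase, had at most 1 count as well.

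Between genotypes, 6 other pathway genes were called higher and 1 lower in resting KO than in resting WT, 15.6% of the 45 beside 9.4% of all genes (5.12% called higher). Parp14 (2.24 ± 0.39), Parp12 (2.20 ± 0.54), Parp10 (1.87 ± 0.49) and Parp9 (1.85 ± 0.43) led, and Parp1, the main DNA damage-activated enzyme of the family, was lower (−0.42 ± 0.10). Replicate 3 of resting KO was again far above the other KO libraries, with 1084 CPM of Parp14 beside 345 and 310 and 698 CPM of Parp12 beside 111 and 99.1. Without it, a comparison added after the data were seen, 2 genes were called higher and 0 lower (808 of 11493 genes called by edgeR), with Parp14 at 1.42 (adjusted p = 0.00397) and Parp9 at 0.79 (adjusted p = 0.0485). With LPS a single pathway gene was called, Hddc3, which removes the phosphate from NADPH, at 1.40 ± 0.31 over WT (adjusted p = 0.0152, edgeR) and at 1.63 ± 0.32 over 3'F (adjusted p = 0.00933, edgeR). Hddc3 held 2.86 ± 0.178 CPM in KO with LPS and 1.08 ± 0.192 in WT with LPS. At rest Hddc3 was called as well, at 1.10 ± 0.30 over WT (adjusted p = 0.0332, edgeR) and 1.01 ± 0.31 over 3'F (adjusted p = 0.0436, edgeR), with 2.85 ± 0.765 CPM in KO, 1.30 ± 0.399 in WT and 1.52 ± 0.523 in 3'F. Without replicate 3 of resting KO it was 0.92 over WT (adjusted p = 0.0998). No pathway gene was called between 3'F and WT by edgeR in either state.

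**Figure D4:**
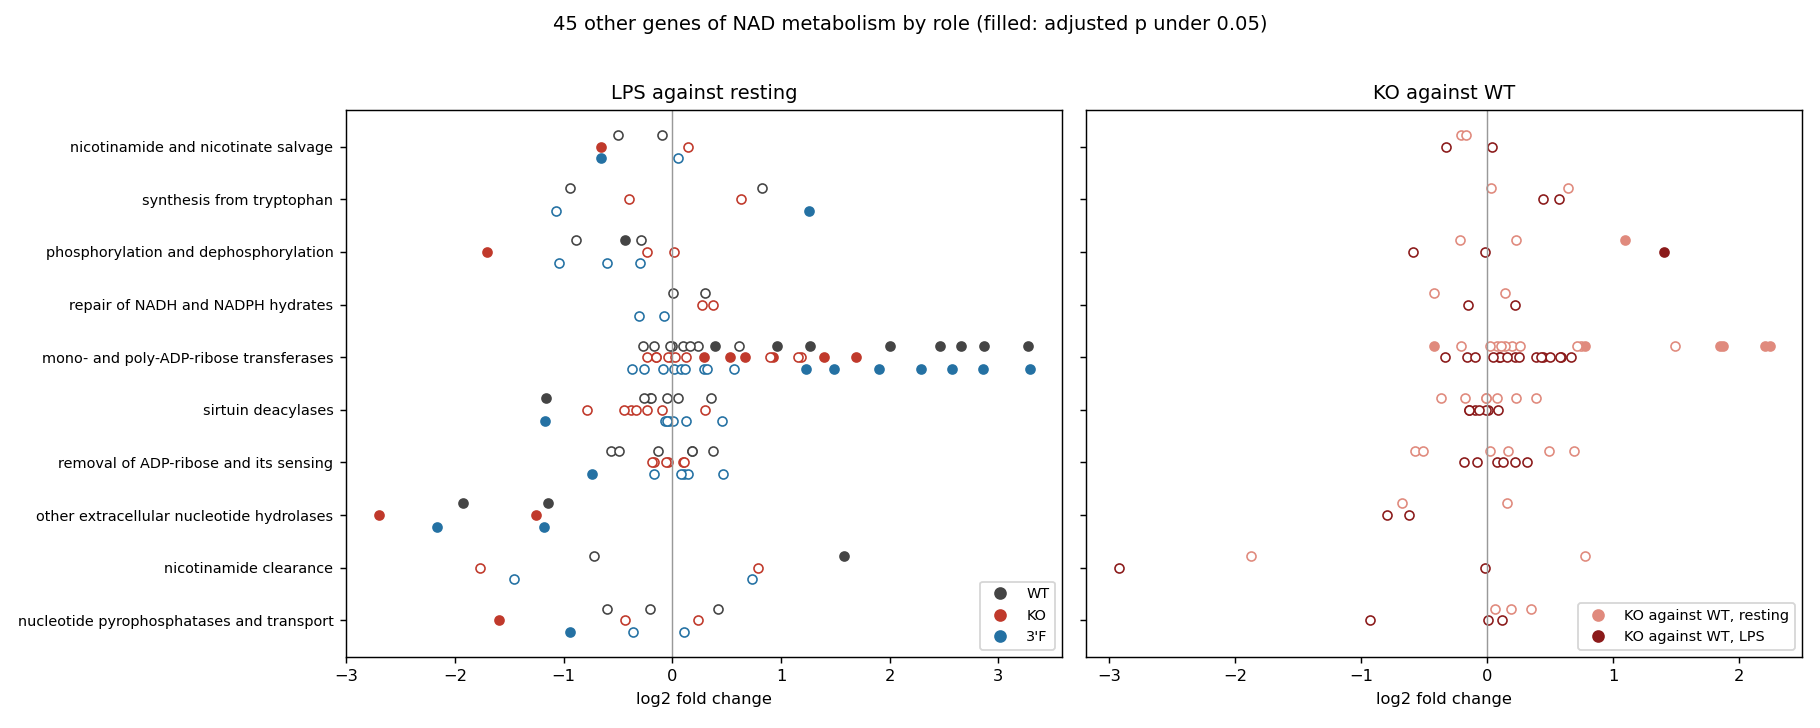
Log2 fold changes (x axes) of 45 other genes of NAD metabolism by role (y axis), for LPS against resting in 3 genotypes (left) and for KO against WT at rest and with LPS (right), with filled points for adjusted p under 0.05. The ADP-ribose transferases reach 3.27 in WT with LPS, where 8 of 16 are called higher.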

How the data were processed

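Deposited raw counts, made by the authors per protein-coding gene (cutadapt 1.8.3, removal of rDNA reads and alignment to mm10 with HISAT2 2.1.0, strand-specific featureCounts 1.5.3 on Gencode M15), were analyzed in R 4.3.3 for 18 libraries, mapped to 6 groups by their labels. Genes passing filterByExpr (11357 of 21734) were scaled by TMM and fitted together with edgeR 4.0.16 (glmQLFit), without covariates. The p-values of 11 two-sided comparisons were each adjusted (Benjamini-Hochberg) over the genes in the fit and called under 0.05. The SE was the log2 fold change divided by the square root of F. With 3 libraries against 3 an exact permutation cannot go below p = 0.1. Alternatives used DESeq2 1.42.0, limma 3.58.1 (voom with quality weights), other scalings and filters, a replicate block, and single libraries left out. Pathway genes were named as up to 4 called higher and 4 lower by log2 fold change in WT with LPS and in KO against WT. The members and lists were chosen with earlier results of these data known. Reads were not independent molecules, so counting intervals cover counting error alone.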

Additional observations from a re-analysis of the deposited data

Results flagged for a closer look

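Naprt was flagged because its LPS and resting libraries differed in opposite directions in KO and WT, without overlap in either genotype. The 3 WT libraries with LPS were below the 3 resting ones, at a log2 fold change of −0.29 ± 0.27, and the 3 KO libraries with LPS were above the resting ones, at 0.51 ± 0.26. The interaction was 0.80 ± 0.37, with an unadjusted p of 0.0465 and an adjusted p of 0.986 by edgeR, so that it failed the correction over all genes. Naprt had 9 to 65 counts per library. In groups of 3 libraries no test for outlying samples was made.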

How the results depend on the processing

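Bst1, Nampt and Nadk kept their LPS calls in all 3 genotypes under each alternative run. Of 1082 recomputed values for single genes, 996 kept direction and side of the threshold, 44 lost a call, 23 gained one, 14 moved and 5 reversed, and the causes were not tested. Members called for LPS ranged from 3 to 4 in WT and in 3'F over the alternatives, and rose from 3 to 5 in KO by limma-voom. For KO against WT at rest they fell from 3 to 1 without a scaling factor, to 0 with only the groups compared, and ranged from 0 to 3 with single libraries left out. For KO against WT with LPS they went from 2 to 1 without a scaling factor, 1 by DESeq2 and 4 by limma-voom, and ranged from 0 to 1 with libraries left out. For KO against 3'F at rest they fell from 2 to 1 without a scaling factor and to 0 with only the groups compared, and ranged from 1 to 3 with libraries left out. For KO against 3'F with LPS they rose from 0 to 1 by DESeq2, 5 by limma-voom, 1 without the filter and 3 with only the groups compared. The Cd38 interaction, which rests on 4 to 12 resting counts per genotype, reversed from 0.58 to −0.17 by limma-voom for KO and ranged from −3.74 to 1.44 with libraries left out, and for 3'F from 0.95 to −1.14 by limma-voom, with a range from −3.37 to 1.96.

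Total counts with no scaling factor moved the median of all genes by LPS from 0.02 to −0.24 in WT, from 0.02 to −0.26 in KO and from −0.01 to −0.21 in 3'F. Counts over all genes grew by more than 1.5 times by limma-voom, from 3240 to 5218, 3059 to 6073 and 3546 to 5478 for LPS in WT, KO and 3'F, from 1067 to 2259 and 544 to 1777 for KO against WT at rest and with LPS, and from 1464 to 2916 and 441 to 1842 for KO against 3'F. By DESeq2, KO against WT with LPS gave 983, and KO against 3'F with LPS 801. In the interaction of KO and LPS, where edgeR called 1 gene, DESeq2 called 15 and limma-voom 57.

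Whether replicate numbers pair the libraries was checked by the correlation of deviations from group means between resting and LPS libraries of the same number, which ran from 0.0283 to 0.318 and was over 0.1 in 5 of 9 pairs. This did not settle the pairing, and the main fit took the libraries to share only a number. As a hint of a pairing, all 9 values were positive, and 8 of 9 resting libraries were most like the LPS library of their own number. If the libraries are paired, the main tests leave the pairing out. With the number as a replicate block, KO against WT at rest had 1 member called in place of 3, and the other counts of members kept their values. The same number in different genotypes marks different mice, and r between such libraries ran from −0.287 to 0.214. A block on the number thus does not show what pairing within a genotype would do.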

Other observations

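Nnmt, which methylates nicotinamide and so takes it out of salvage, was the pathway gene with the lowest log2 fold change of KO against WT with LPS, at −2.92 ± 1.04 (adjusted p = 0.122, edgeR). Its level was 0.0962 ± 0.111 CPM in KO and 0.783 ± 0.382 CPM in WT with LPS, and 0.343 ± 0.501 and 1.27 ± 0.755 CPM at rest, where the difference was −1.87 ± 0.81 (adjusted p = 0.174, edgeR). It was singled out after its values were seen, and neither difference passed the test.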
